A study of Arabidopsis thaliana with 12 samples.

Results

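Transcripts of SBPASE (AT3G55800) and PRK (AT1G32060), a pair of light-regulated Calvin cycle enzymes, were followed in Arabidopsis thaliana WT plants and in the psao mutant. They are the Calvin cycle genes read by a probe that the platform annotation pairs with exactly 1 gene. Each had 1 such probe, so the description covers 2 of 3439 probes on the array, and 2 of the 692 probes with 1 gene. Neither locus lay on any of the 870 probes paired with several genes. The study compared 6 arrays of WT with 6 arrays of psao, a mutant without PSI-O, which is one of the small proteins of photosystem I. All arrays were hybridised with total RNA of ecotype Columbia 0. Tissue, plant age, light regime and the nature of the mutation are not given in the sources used here, and 0 probes with 1 gene were paired with PSAO itself, so the genotype labels were not checked by its transcript. The labels do not say that arrays stem from separate plants, so the spread behind the p-values may be a technical one.

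The Calvin cycle fixes carbon dioxide in the chloroplast stroma and then rebuilds its acceptor, ribulose bisphosphate. SBPASE encodes sedoheptulose-bisphosphatase, which removes a phosphate from sedoheptulose bisphosphate and so commits carbon to the rebuilding branch. PRK encodes phosphoribulokinase, which uses ATP for the last step of that branch. Both enzymes are switched on in the light when thioredoxin reduces a disulfide bond in them. The electrons for this come from photosystem I through ferredoxin and ferredoxin-thioredoxin reductase, while NTRC, an NADPH-dependent thioredoxin reductase, forms a separate supply. PRK is also held inactive in the dark in a complex with glyceraldehyde phosphate dehydrogenase and the small protein CP12.

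The deposited intensity is a relative one, with the brightest probe of an array set to 100. That probe was 1 of 4 different probes, depending on the array. Array medians lay between 0.0970 and 0.195 in WT and between 0.198 and 0.273 in psao, and the share of zeros was 14.5% in WT array 1, 15.1% in WT array 2 and at most 7.33% elsewhere. Arrays were therefore quantile normalized on the log2 scale before testing. Within a genotype, neighbouring arrays (1 with 2, 3 with 4, 5 with 6) resembled each other, with a consensus correlation of 0.701 over the tested probes, and are called couples here. What a couple stands for is not in the labels. With limma on all arrays, 949 of 3187 tested probes passed an adjusted p of 0.05, which is 29.8%, with 15% lower and 14.8% higher in psao, so a call of either gene is one among many. In bulk RNA, fewer cells of a type and less RNA per cell cannot be told apart.

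SBPASE was lower in psao on average. Its difference passed in limma over all arrays, but not in limma with couples averaged, couples as a random block or same-numbered arrays paired. Its deposited intensity was lowest at 0.739, had a median of 0.842 and reached 1.17 over the 6 WT arrays. Over the 6 psao arrays it was lowest at 0.480, had a median of 0.680 and reached 1.02. As deposited the groups overlapped: psao array 1 lay above 4 of the 6 WT arrays, and the other 5 psao arrays lay below the lowest WT array.

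After quantile normalization the mean log2 level of SBPASE was -0.05 ± 0.21 (SD) over the 6 WT arrays and -0.70 ± 0.44 (SD) over the 6 psao arrays. The difference of -0.66 ± 0.22 log2 units (SE), with a 95% interval from -1.13 to -0.18, put the psao level at 63.5% of WT (interval 45.8% to 88.0%), and it passed with a limma adjusted p of 0.0384. No psao array reached the WT mean, as was the case for 25.2% of probes with 6 psao values, and 5 of the 6 lay below the lowest WT array. With the array number as a block, which pairs same-numbered WT and psao arrays, the limma adjusted p was 0.0513 and the call was lost, although 34.2% of all probes passed that fit. Of 3187 tested probes, 23.3% had a lower difference than SBPASE, so the fall was moderate on this array.

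PRK was also lower in psao on average, but its difference did not pass the test. Its deposited intensity was lowest at 0.947, had a median of 1.20 and reached 2.35 over the WT arrays. Over the psao arrays it was lowest at 0.947, had a median of 1.04 and reached 1.27. The groups overlapped: WT arrays 1 and 2, at 1.93 and 2.35, stood above all psao arrays, while the other 4 WT arrays lay between 0.947 and 1.23, within the psao range.

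On the normalized scale the mean log2 level of PRK was 0.50 ± 0.53 (SD) over the 6 WT arrays and 0.03 ± 0.11 (SD) over the 6 psao arrays. The difference was -0.48 ± 0.23 log2 units (SE), with an interval from -0.98 to 0.03 and a limma adjusted p of 0.135. That interval runs from 50.8% to 102% of the WT level, so a fall as large as that of SBPASE and no difference both lie within it. Each of the 6 psao arrays was below the mean of WT, as for 25.2% of probes with 6 psao values, yet 1 of the 6 lay below the lowest WT array. WT arrays 1 and 2, at 1.07 and 1.22 log2 units, raised that mean. In the fit blocked by array number the limma adjusted p of PRK was 0.106.

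**Figure D1:**
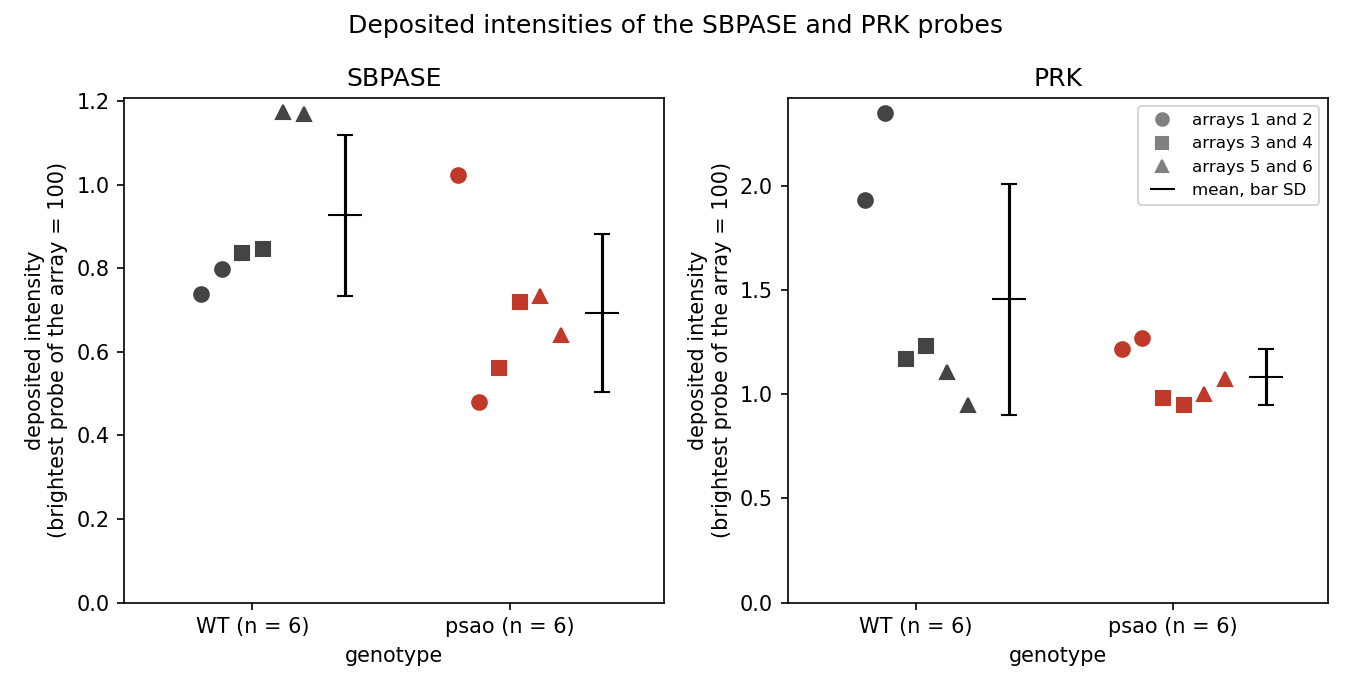
Deposited intensities (brightest probe of the array = 100) of the SBPASE and PRK probes on 6 WT and 6 psao arrays, each point 1 array, its shape the couple, and the bar the mean with its SD. For SBPASE 5 of the 6 psao arrays lie below the lowest WT array at 0.739, and for PRK WT arrays 1 and 2 at 1.93 and 2.35 stand apart from all others.

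The spread of the 2 genes lay in opposite genotypes. For SBPASE the SD was 0.21 log2 units in WT and 0.44 in psao, and for PRK it was 0.53 in WT and 0.11 in psao. In SBPASE the wide group came from psao arrays 1 and 2, which stood at -0.12 and -1.46 log2 units, a gap of 1.34 within 1 couple. The median gap of all tested probes between those arrays was 0.231, and 6.02% of probes had a gap as large as that of SBPASE. In PRK the arrays of a couple lay within 0.20 log2 units of each other in both genotypes, and the wide WT group came from differences between couples.

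Taken couple by couple, the psao mean of SBPASE lay below the WT mean in all 3 couples, while the PRK differences were unequal. The single SBPASE arrays overlapped in arrays 1 and 2, where psao array 1 stood at -0.12 log2 units and the WT arrays at -0.19 and -0.07. SBPASE couple means in WT were -0.13, -0.23 and 0.21 log2 units for arrays 1 and 2, 3 and 4, and 5 and 6, against -0.79, -0.67 and -0.65 in psao. The differences were therefore -0.66, -0.44 and -0.86, all below 0, as in 29.1% of probes with values in every couple. PRK couple means in WT were 1.15, 0.34 and 0.02 log2 units, against 0.15, -0.08 and 0.01 in psao.

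The PRK differences in the couples were thus -0.99, -0.43 and -0.0046 log2 units. The psao couples of PRK lay close together, and the WT couples spanned the range. Arrays 1 and 2, where the PRK difference was largest, hold the WT arrays with the most zeros and the lowest medians, and the part of this in the PRK value was not tested. A limma term for genotype by couple, added after these values had been seen, passed for PRK (adjusted p = 0.0135) and did not for SBPASE (adjusted p = 0.794). It passed for 30.4% of 2990 probes, and it takes the arrays of a couple as separate samples.

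**Figure D2:**
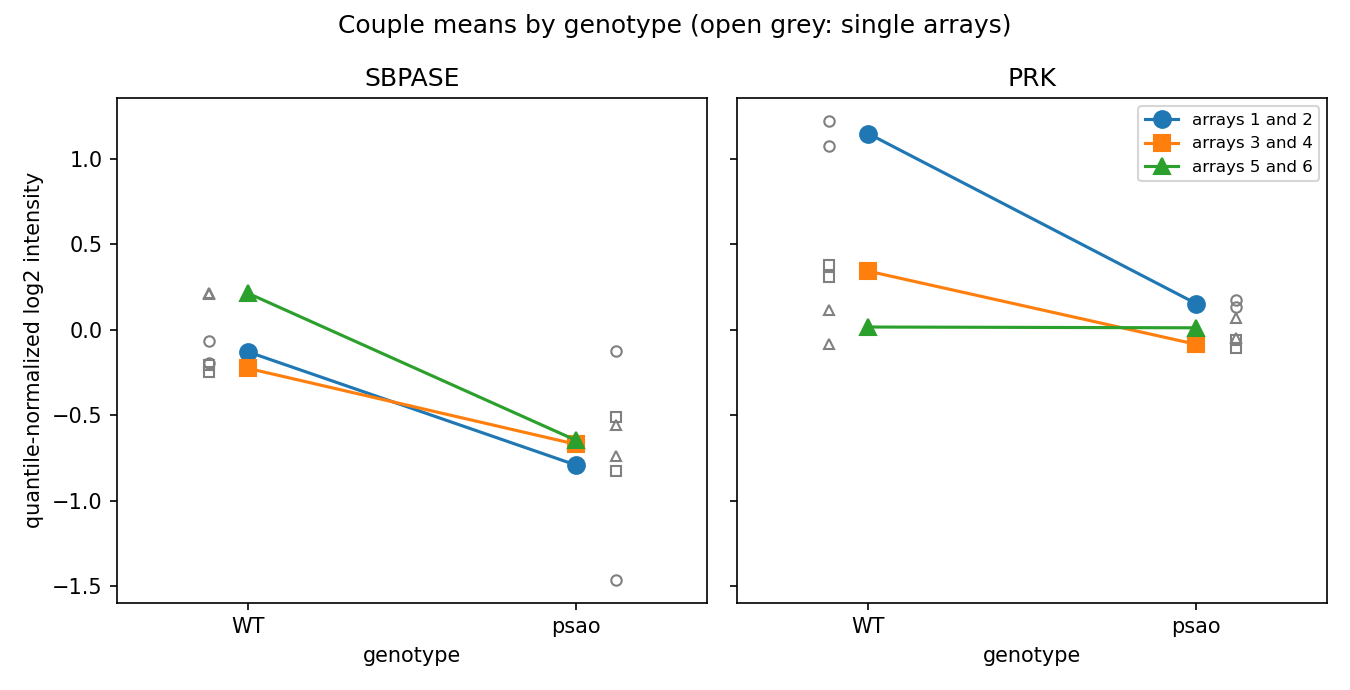
Quantile-normalized log2 intensities of SBPASE and PRK by genotype, with lines joining the WT and psao means of each couple of arrays and open grey points for single arrays. The SBPASE lines all descend, by 0.44 to 0.86 log2 units, whereas the PRK line of arrays 1 and 2 descends by 0.99 and that of arrays 5 and 6 is level.

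With the arrays of a couple averaged, so that 3 values stood against 3, neither gene passed. The limma adjusted p was 0.208 for SBPASE and 0.442 for PRK, in a fit where 2.01% of 2990 probes passed. The 3 psao couple means of SBPASE all lay below the 3 of WT, and an exact two-sided permutation test of them gave p = 0.1, the smallest that 3 against 3 allows. For PRK the same exact test gave p = 0.2. With couples as a random block, where 10.4% of probes passed, the limma adjusted p was 0.359 for SBPASE and 0.281 for PRK.

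The SBPASE adjusted p lay close to the threshold and crossed it in limma when any 1 of 8 arrays was left out, while the difference stayed between -0.69 and -0.50 log2 units. It was -0.66 without WT replicate 2 (adjusted p = 0.0546), -0.69 without WT replicate 4 (0.0511), -0.60 without WT replicate 5 (0.0759) and -0.60 without WT replicate 6 (0.0760). It was -0.63 without psao replicate 3 (limma adjusted p = 0.0687), -0.68 without psao replicate 5 (0.0550) and -0.65 without psao replicate 6 (0.0691). Without psao replicate 2, the lowest array, it was -0.50 (limma adjusted p = 0.0624), and without psao replicate 1, the highest, it was -0.77 and passed. Over arrays 3 to 6 the difference was -0.65, which passed (limma adjusted p = 0.0155, where 38.6% of probes passed). The PRK difference was -0.22 with arrays 3 to 6 alone (limma adjusted p = 0.249), and under array weights it was -0.24 (limma adjusted p = 0.224).

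Scaling moved the size of both differences and not their direction. As deposited, the median difference of all tested probes was 0.43 log2 units toward psao. The SBPASE difference was then -0.44 (limma adjusted p = 0.143, in a fit that 30.9% of probes passed), which is -0.87 relative to that median, and that of PRK was -0.36, or -0.79 relative to it. Under median centring the SBPASE difference was -0.97 log2 units (limma adjusted p = 0.00538, where 30.7% of probes passed), and that of PRK was -0.89 (limma adjusted p = 0.0518). The percentile of a probe within its own array needs no scaling: for SBPASE it averaged 86.2 ± 1.74 (SD) in WT and 78.4 ± 5.68 (SD) in psao, 6 arrays each, and a two-sided exact permutation test gave p = 0.00649. For PRK the percentile averaged 89.7 ± 3.54 (SD) in WT and 86.5 ± 1.04 (SD) in psao, and the same exact test gave p = 0.0476. This test, unadjusted, passed for 41.6% of all probes. It leaves out the pairing by array number and takes the arrays of a couple as separate samples. Exact sign changes of the 6 same-numbered percentile differences gave p = 0.0312 for SBPASE, the smallest they can give, and p = 0.0625 for PRK, which did not pass.

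**Figure D3:**
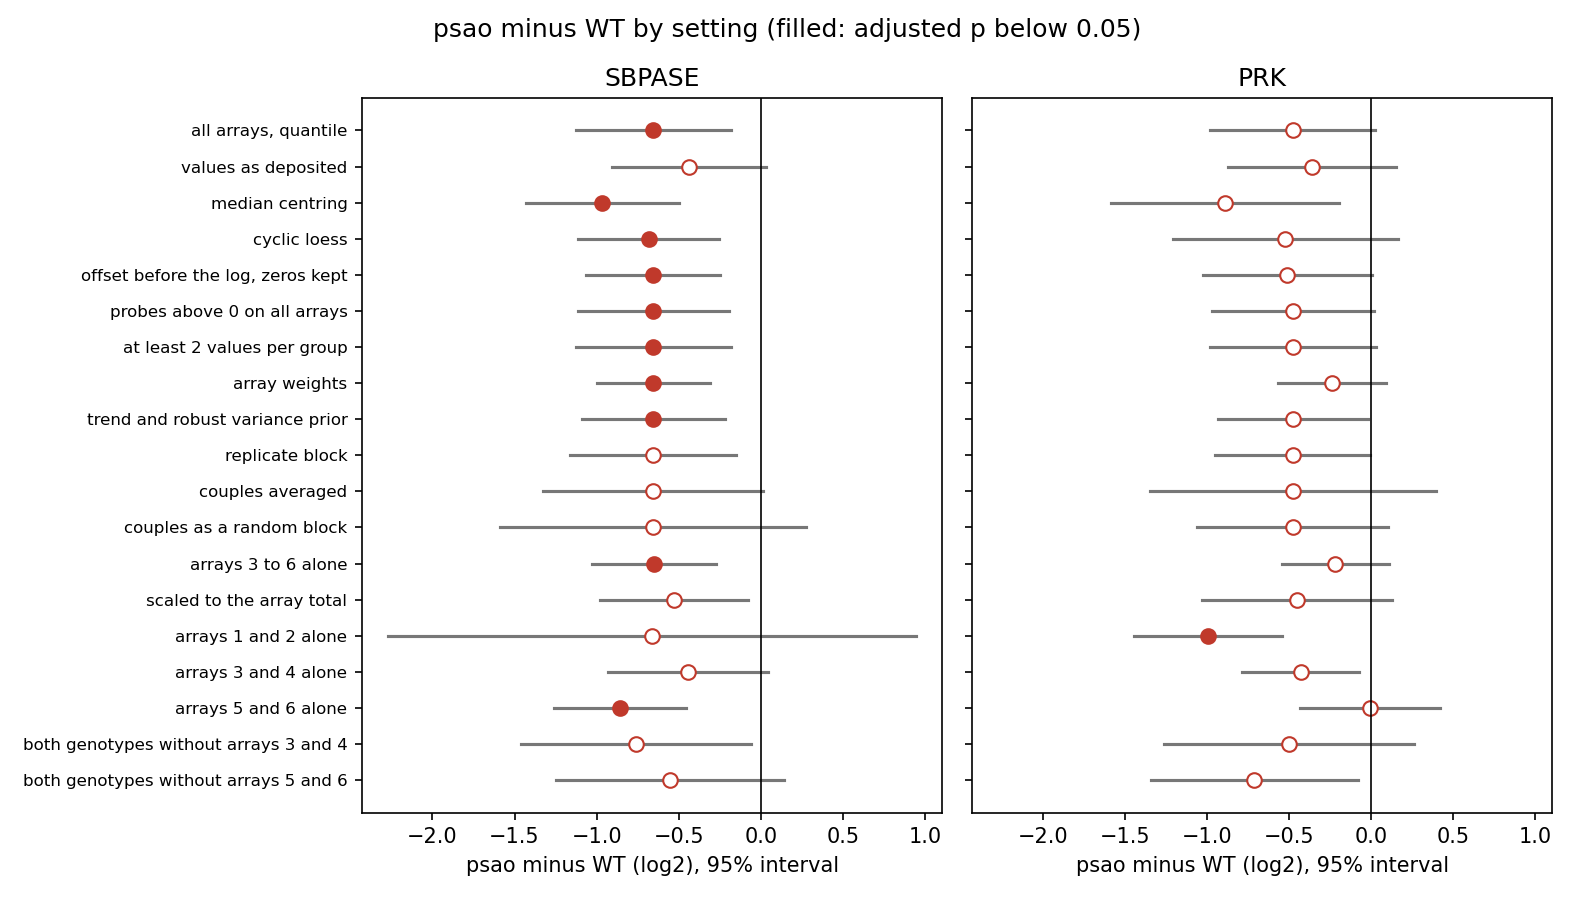
Differences psao minus WT of SBPASE and PRK (log2) with 95% intervals under each processing setting, filled where the limma adjusted p was under 0.05. All points lie below 0, SBPASE between -0.97 and -0.44 and PRK between -0.99 and -0.0046, and PRK is filled for arrays 1 and 2 alone.

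That SBPASE passed and PRK did not does not show that they changed differently, so the difference of their log2 values within each array was compared between genotypes. It averaged -0.55 ± 0.66 (SD) on the WT arrays and -0.73 ± 0.49 (SD) on the psao arrays, 6 of each. The genotypes differed by -0.18 ± 0.34 log2 units (SE; two-sided exact permutation test, p = 0.595), and 3 of the 6 psao arrays lay below the WT mean. Inverting the same exact test gave a 95% interval from -0.94 to 0.56, so unequal changes within those bounds are not excluded by it. In the couples the value was 0.33, -0.02 and -0.86. Without psao replicate 2 it was 0.0011.

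NTRC (AT2G41680) served as a gene of the redox system for comparison. It was 1 of the 2 tested genes of the thioredoxin system. The other, AT2G04700, listed as FTRB, was lower in psao by a difference of -0.63 log2 units. SBPASE and PRK were not set against AT2G04700, so the comparisons below hold for NTRC as the reference only. The deposited intensity of NTRC was lowest at 0.113, had a median of 0.174 and reached 0.247 in WT. In psao it was lowest at 0.192, had a median of 0.255 and reached 0.420. Its normalized difference was 0.16 ± 0.19 log2 units (SE) and did not pass (limma adjusted p = 0.556). It depended on the scaling, at 0.67 as deposited (limma adjusted p = 0.0808) and 0.58 scaled to the array total, and under array weights, with arrays 3 to 6 alone and with arrays 3 and 4 alone it had the opposite sign.

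SBPASE relative to NTRC within an array was lower in psao by a difference of -0.81 ± 0.30 log2 units (SE). The 6 psao arrays were all under the mean of WT (exact two-sided permutation p = 0.0130, and 0.0390 adjusted over the 3 within-array comparisons made). PRK relative to NTRC differed by -0.63 ± 0.26 log2 units (SE), again with each psao array under the mean of WT (exact permutation p = 0.0325, adjusted 0.0487). The share of all probes that would pass relative to NTRC is not given here, so how common such a pass is cannot be read. By their own level, 25.2% of probes with 6 psao values lay wholly under the WT mean. The 3 comparisons were chosen with earlier results known, which their adjustment does not cover. Their exact tests take the arrays of a couple as separate samples, and a test on couple means is not given for them. With 3 couple means against 3, the smallest p of an exact two-sided permutation test is 0.1.

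With values as deposited, where a common factor of an array cancels, the differences were -1.11 for SBPASE (exact permutation p = 0.00649) and -1.03 for PRK (exact permutation p = 0.00433). A shift that depends on intensity does not cancel. NTRC lay near the array medians, below SBPASE and PRK, and the median difference of all tested probes as deposited was 0.43 log2 units. Relative to that median SBPASE was at -0.87 and PRK at -0.79. The part of such a shift in the comparisons with NTRC was not tested. Both comparisons with NTRC lost their call when arrays were paired by number, with p of 0.0625 for SBPASE and 0.156 for PRK from exact sign changes of the 6 same-numbered differences, a test whose smallest p is 0.0312. In arrays 3 and 4 both were near 0, at -0.06 for SBPASE and -0.05 for PRK. In arrays 1 and 2 they were -1.31 and -1.64, and in arrays 5 and 6 they were -1.07 and -0.22. NTRC itself was not steady: its couple differences psao minus WT were 0.64, -0.38 and 0.21 log2 units, in the order of array number. Where NTRC was lower in psao (-0.38), SBPASE at -0.44 and PRK at -0.43 were lower too, which brought both comparisons near 0. Where NTRC was higher, its rise added to the size of both. The couple pattern of the comparisons is therefore partly that of NTRC. With arrays 3 to 6 alone the comparisons were -0.57 for SBPASE (exact permutation p = 0.143) and -0.13 for PRK (exact permutation p = 0.429). The PRK comparison also lost its call without WT replicate 2 (exact p = 0.0519) and without psao replicate 1 (0.0758), 2 (0.0758) or 5 (0.0628).

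The rest of the pathway was thinly covered. Of 26 listed loci of the Calvin cycle, from Rubisco to CP12, SBPASE and PRK were the 2 tested, with 1 lower, 0 higher and a median difference of -0.57 log2 units, beside 15% lower, 14.8% higher and a median of -0.04 over all tested probes. A count of 1 in 2 cannot be told apart from that share. A further locus of that list lay only on probes with several genes and was not read. Of the thioredoxin system, which supplies the electrons that activate both enzymes, 2 of 17 loci were tested, NTRC and AT2G04700, with 1 lower and 0 higher, again beside 15% lower over all probes. Their differences had opposite signs, 0.16 and -0.63 log2 units, with a median of -0.23 that describes neither.

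AT2G04700 was lower in psao by a difference close to that of SBPASE. Its deposited intensity was lowest at 0.605, had a median of 0.685 and reached 0.731 in WT, and was lowest at 0.399, had a median of 0.532 and reached 0.591 in psao. The groups did not overlap, as deposited or normalized. This separation in the direction of lower psao values held for 9.51% of tested probes after normalization. On the normalized scale it fell from a WT mean of -0.49 ± 0.08 (SD, n = 6) to -1.11 ± 0.15 (SD, n = 6), a difference of -0.63 ± 0.14 log2 units (SE, limma adjusted p = 0.00536). The couples gave -0.73, -0.68 and -0.47. With values as deposited the difference was -0.42 and the call was lost (limma adjusted p = 0.0663), as with couples averaged (0.208) and with couples as a random block (0.0586). It was also lost with arrays 5 and 6 alone (-0.47, limma adjusted p = 0.0739) and without arrays 3 and 4 (-0.60, 0.0532), and passed in 25 of 30 alternatives.

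In the Rubisco assembly list 1 of 8 loci was tested, AT3G47650, and it moved the other way from SBPASE. Its deposited intensity was lowest at 0.697, had a median of 1.14 and reached 1.53 in WT, and was lowest at 2.04, had a median of 2.39 and reached 2.70 in psao. The groups did not overlap, in a direction seen for 10.2% of tested probes after normalization. It rose from 0.27 ± 0.32 (SD, n = 6) to 1.17 ± 0.14 (SD, n = 6), a difference of 0.90 ± 0.18 log2 units (SE, limma adjusted p = 0.00303). Under median centring it was 0.54, with the call lost (limma adjusted p = 0.0676), as with couples averaged (0.148).

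Photorespiration, which salvages carbon when Rubisco takes oxygen in place of carbon dioxide, had 1 of 14 loci tested. This was LrgB (AT1G32080), a transporter of glycolate and glycerate in the chloroplast envelope. Its deposited intensity was lowest at 0.204, had a median of 0.240 and reached 0.402 in WT, and was lowest at 0.152, had a median of 0.291 and reached 0.732 in psao. Its difference was 0.01 ± 0.38 log2 units (SE, limma adjusted p = 0.983). The couples gave 0.51, -0.37 and -0.11. The sign turned with the scaling and with the arrays used, and was below 0 in 13 of 30 alternatives. The lists of starch, carbon export and the oxidative pentose phosphate pathway, and those of seed, root and stress markers, had 0 tested loci, so signs of other tissues or of stress were not analysed here.

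**Figure D4:**
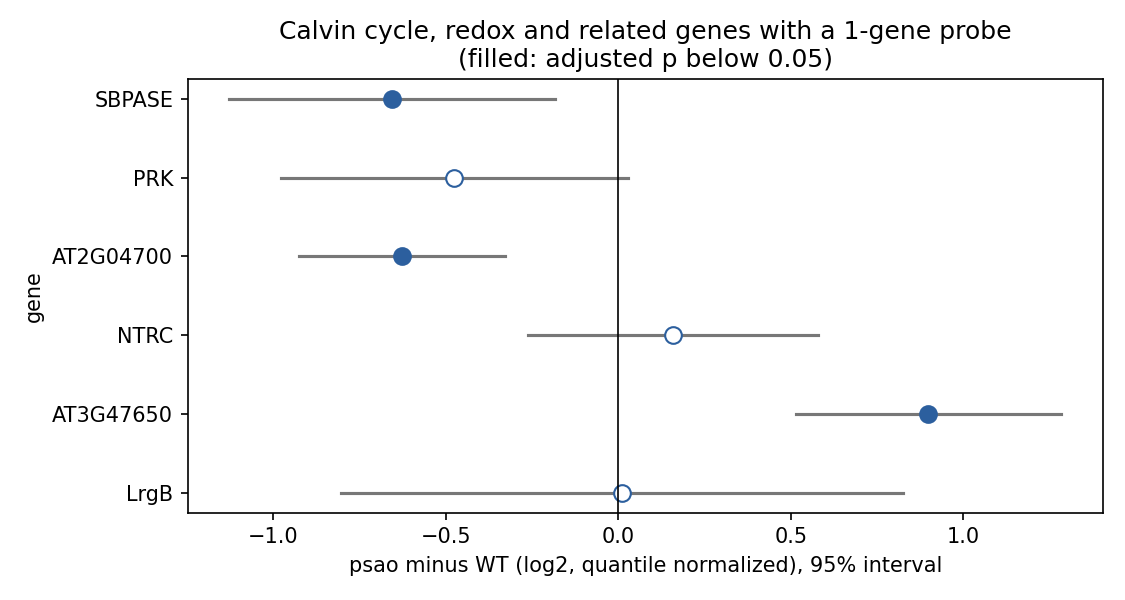
Differences psao minus WT (log2, quantile normalized, 6 arrays a group) with 95% intervals for the 6 listed genes that had a tested 1-gene probe, filled where the limma adjusted p was under 0.05. SBPASE at -0.66 and AT2G04700 at -0.63 are lower, AT3G47650 at 0.90 is higher, and the intervals of PRK, NTRC and LrgB reach across 0. The fit takes the arrays of a couple as separate samples, and with couples averaged none of these genes passed.

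The profiles of SBPASE and PRK over the 12 arrays were closer to each other than the median candidate and farther than a flat line. Likeness was measured as the root mean square difference of normalized log2 values after each profile was centred on its mean, among 480 other probes with 1 gene and a value on every array. A smaller value means a closer profile. SBPASE and PRK differed by 0.539 log2 units, beside a median over the candidates of 0.749 for SBPASE and 0.776 for PRK. This placed PRK at rank 105 for SBPASE and SBPASE at rank 99 for PRK. A flat profile would have differed by 0.456 from SBPASE and by 0.421 from PRK, both less than 0.539.

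Closest to SBPASE was AT1G28150, at 0.295 log2 units, with a difference psao minus WT of -0.27 that did not pass (limma adjusted p = 0.290). Next came AT2G04700, at 0.299, and AT3G12930, at 0.311, with a difference of -0.59 (limma adjusted p = 0.0186). Closest to PRK was AT3G46950, at 0.128, with a WT spread of 0.50 (SD, n = 6) and a psao spread of 0.27, beside 0.53 and 0.11 for PRK. LHB1B2 (AT2G34420, also called LHCB1.5), a chlorophyll-binding protein of light-harvesting complex II, followed at 0.223, and then AT2G47830 at 0.254. The differences psao minus WT of these 3 were -0.46, -0.19 and -0.43 log2 units, and none of the 3 passed (limma adjusted p = 0.168, 0.6252 and 0.344). These likenesses describe 12 arrays that share couples and scaling, and carry no test.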

How the data were processed

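The deposited table holds 1 intensity per probe and array, for 3439 probes on 12 arrays. The deposited intensities were never negative and reached exactly 100 on every array. Any earlier step by the authors is not given in the sources used here, and the platform annotation lists 1562 of the probes, of which 692 have 1 gene, 870 have several, and 1877 probes are not listed. Names were updated through RefSeq (assembly TAIR10.1), where 691 of the 692 matched. No coordinates or sequences are printed, since no build was named for the array and no sequence table was used here.

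Intensities were taken as log2 with zeros missing, quantile normalized in limma 3.58.1 (R 4.3.3), and kept with at least 4 values per group, which left 3187 probes and took out 252. Both SBPASE and PRK had a value above 0 on every array. Zeros were unevenly shared between arrays, so a further fit kept them by adding 0.05 before the log. The differences were then -0.66 for SBPASE (limma adjusted p = 0.0184) and -0.51 for PRK (limma adjusted p = 0.122). In that fit 1061 of 3439 probes passed. Genotypes were compared with lmFit and eBayes, two-sided, with Benjamini-Hochberg adjustment over all tested probes. Random blocks used duplicateCorrelation (statmod 1.5.0). The model was first tested on simulated data with known changes. The simulated arrays had independent noise and no couples, so the simulation cannot show the share of false calls in these data. For arrays, their number limits the precision.

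WT and psao share array numbers 1 to 6. Across probes, deviations from the group means correlated between WT and psao arrays of 1 number with r of at least 0.144 and at most 0.239. Correlations between arrays of different numbers are not given here, so these values do not show that the numbers are pairs. The main limma fit and the permutation tests leave the number out. Apart from the tests of couple means, they also take the arrays of a couple as separate samples. Tests paired by number are given beside them for SBPASE and PRK. The SBPASE call in limma was then lost (limma adjusted p = 0.0513).

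Named were SBPASE, PRK, every tested gene of 10 lists with 107 loci (12 or fewer, otherwise 3 per list), and the 3 genes of closest profile to each. The members, lists, couples and tests were chosen with earlier results of these data known.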

Additional observations from a re-analysis of the deposited data

Results flagged for a closer look

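The SBPASE value relative to NTRC within an array stood at 0.22 log2 units in psao replicate 2, with the nearest other psao array at 1.45, a gap of 73.4% of the group's range. In the same array SBPASE was at its lowest, -1.46 log2 units. Without it the genotype difference in SBPASE relative to NTRC was -0.58 (exact permutation p = 0.0281). A search for far samples covered 18 sets of values, of which chance flags about 1 in 20.

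The PRK difference between psao and WT varied between couples of arrays, at -0.99, -0.43 and -0.0046 log2 units. The limma term for genotype by couple, added after these values had been seen, had an adjusted p of 0.0135. It takes the arrays of a couple as separate samples. It passed for 30.4% of 2990 probes.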

How the results depend on the processing

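The differences of SBPASE and PRK were below 0 in all 30 limma alternatives of each. SBPASE passed in 13 of 30, with adjusted p from 0.00538 to 0.375, and PRK in 1 of 30, with adjusted p from 0.0238 to 0.986. SBPASE missed the threshold at an unchanged -0.66 log2 units with the replicate block, couples averaged or couples as a random block. It also missed it at -0.44 as deposited, -0.53 scaled to the array total, -0.66 with arrays 1 and 2 alone, -0.44 with arrays 3 and 4 alone, -0.76 without arrays 3 and 4 and -0.55 without arrays 5 and 6. Leaving out 1 array gave -0.77 to -0.50. PRK passed with arrays 1 and 2 alone (-0.99) and by its percentile in the array (-3.26 points, exact permutation p = 0.0476), though not in that test with arrays paired by number (p = 0.0625). Under array weights it was -0.24. Leaving out 1 array gave -0.59 to -0.33. Calls over all probes, 949, became 1427 with array weights, 60 with couples averaged, 330 with couples as a random block, 597 without arrays 3 and 4 and 432 without arrays 5 and 6, and were 787 to 943 without 1 array. Lower calls were 477 of 949 after quantile normalization and 223 of 986 as deposited. Within arrays, SBPASE minus PRK ranged from -0.33 to 0.0011 with 1 array left out, and turned sign without psao replicate 2 (0.0011). As deposited, SBPASE minus NTRC was -1.11 and PRK minus NTRC -1.03. SBPASE minus NTRC stayed at -0.81 and lost its call under the replicate block, and was -0.57 with arrays 3 to 6 alone. PRK minus NTRC stayed at -0.63 and lost its call under the block, and was -0.13 with arrays 3 to 6 alone. Leaving out 1 array gave -0.92 to -0.58 and -0.74 to -0.45. Where fewer arrays or 1 value per couple entered, fewer samples were tested. The cause of the other changes was not tested. Signal over background could not be read from these values.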
